A study of Mus musculus with 20 samples.

Results

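The genes described here are 51 genes that copy DNA or run S phase, the stage of the cell cycle in which the genome is duplicated, out of 49997 genes counted in each of 2 tables. They were taken by symbol, and all 51 were found. Sorted and cultured mouse bone marrow cells were sequenced as polyadenylated RNA in 6 groups of 3 libraries. HSC carried the surface markers of haematopoietic stem cells (CD201+, CD150+, Kit+, Sca1+, negative for lineage markers), and HPC those of progenitors (CD201- and CD150-, otherwise the same). In each cell type the groups were a homozygous Runx2 knockout (hom), a heterozygous Runx2 knockout (het) and wild type (WT), with Runx2 being a member of the RUNX family of DNA-binding factors. The design text names both Runx2-flox mice and CRISPR for the HSC, the method behind each library is not labelled, and no Cre line is named. The animals' age and strain are not given in the sources used here, nor whether replicates are separate animals or cultures, so the p-values cover variation among these libraries that could be purely technical.

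DNA replication starts when the origin recognition complex, CDC6 and CDT1 load the ring-shaped MCM helicase onto DNA in G1. CDC45 and the GINS complex then turn the loaded rings into working helicases, and primase with polymerase alpha lays down the first primers. The clamp PCNA, loaded by replication factor C, tethers polymerases delta and epsilon, while RPA coats the exposed single strands and FEN1 and ligase I join the lagging-strand pieces. E2F transcription factors and cyclin E switch many of these genes on as cells pass from G1 into S phase, so in blood progenitors their RNA marks cells in cycle.

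The 18 libraries held 16663497 to 27061457 counts on genes, at which 3 counts equal 0.111 to 0.18 CPM (counts scaled to a common library total), a floor that covers counting error only. Levels are in CPM scaled with TMM factors, which even out differences in RNA composition between libraries. Runx2 itself had 27.5, 30.4 and 26.7 CPM in hom, 90.0, 96.0 and 87.6 CPM in het and 126, 133 and 130.4 CPM in WT libraries of HSC, so that hom, het and WT did not overlap. In HPC it had 21.9, 20.9 and 23.0 CPM in hom, 98.7, 100.3 and 92.0 CPM in het and 112, 120.1 and 119.5 CPM in WT libraries, again in 3 separate ranges. Procr, which encodes CD201, had 38.1 to 67.3 CPM in HSC libraries and 4.48 to 7.19 CPM in HPC libraries, while Ly6a, which encodes Sca1, was listed at 0 counts in all 18 libraries. The Y-linked Ddx3y had 2181 to 3831 counts in HSC libraries and 0 in HPC libraries, and Xist had 0 to 24 counts in HSC libraries and 52393 to 94240 in HPC libraries. Cell type therefore cannot be told apart from sex chromosome content or from the table.

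Of the 51 genes, 50 passed the filter on low counts in every fit. Rrm2, the small subunit of ribonucleotide reductase, was listed at 0 counts in all 18 libraries, although none of its exons overlaps another gene in the table. Rrm1, the large subunit of the same enzyme, had 274 to 427 CPM, and nothing is read from the 0 of Rrm2. Counting took no account of strand, and read pairs in exons that 2 genes share were not assigned. Levels are therefore uncertain for Ccne2 (52.3% of its exon bases shared with Ints8), Gins1 (24.5%), Chaf1a (18.7%, with Ubxn6), Tk1 (18.6%), Rfc4 (13.2%), Gins2 (11.4%), Lig1 (6.95%) and Cdc45 (5.4%). The other 42 tested genes share at most 5% of their exon bases with another gene. Of the further genes named below, over 5% of exon bases are shared for Pold4 (64.2%), Prc1 (22.7%), Ccnd1 (21.7%), Supt16 (20.5%), Ccnd3 (14.3%), Ccna2 (11.2%), Recql4 (10.2%), Aurka (9.49%), Gata1 (8.82%), Rbl2 (8.49%) and Nusap1 (6.82%), whose levels are uncertain.

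Promoter sequences, 250 bases before to 50 bases after the start of transcription, were at hand in RefSeq for 43 of the 51 genes (build GRCm38.p6). They were searched on both strands for the E2F core motif, spelled TTTCCCGC, TTTCGCGC, TTTGCCGC or TTTGGCGC, which 17 of the 43 held (39.5%), against 2.26% of all 32851 promoters of this length. Counted per gene, as the 17 are, it was held by 2.6% of 27025 genes, and by 4.4% of the 11574 genes that were tested in the fits and had a promoter in the table. The 23 matches, which can overlap where different spellings on opposite strands share bases, lay from -185 to 39 bases of the start, and 15 of them lay within 100 bases of it. Of the 12 genes that were lower in HPC het than in HPC WT (below), 11 had a promoter in the table and 3 held the motif: Pola1 (chrX:93632106-93632405, minus strand), Pold1 (chr7:44548766-44549065, minus strand) and Clspn (chr4:126556730-126557029, plus strand). That is a smaller share than the 17 of 43 above, and the difference was not tested. These 3 promoters are shown because they belong to genes that passed the test, with the E2F match in capitals.

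Pola1: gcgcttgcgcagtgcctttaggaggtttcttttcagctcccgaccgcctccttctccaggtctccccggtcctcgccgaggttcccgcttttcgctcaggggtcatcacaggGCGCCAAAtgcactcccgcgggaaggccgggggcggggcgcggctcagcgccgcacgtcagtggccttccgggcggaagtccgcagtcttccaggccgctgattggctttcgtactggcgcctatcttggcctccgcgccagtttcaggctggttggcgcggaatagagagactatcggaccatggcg
Pold1: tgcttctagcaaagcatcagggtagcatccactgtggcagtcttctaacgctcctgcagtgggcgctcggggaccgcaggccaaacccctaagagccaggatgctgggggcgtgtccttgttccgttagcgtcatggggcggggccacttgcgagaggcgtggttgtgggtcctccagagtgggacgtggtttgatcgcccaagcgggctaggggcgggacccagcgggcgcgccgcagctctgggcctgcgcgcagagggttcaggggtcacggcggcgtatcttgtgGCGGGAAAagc
Clspn: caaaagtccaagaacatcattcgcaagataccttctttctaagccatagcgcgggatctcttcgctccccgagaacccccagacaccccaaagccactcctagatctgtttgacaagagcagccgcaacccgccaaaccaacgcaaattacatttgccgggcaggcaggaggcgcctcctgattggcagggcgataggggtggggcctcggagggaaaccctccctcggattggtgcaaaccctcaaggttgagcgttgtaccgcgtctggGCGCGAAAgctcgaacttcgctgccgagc

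Other motifs were closer to their share of all 27025 genes with a promoter in the table. The CCAAT box stood in 27 of the 43 (62.8%), against 41.1% of all genes. The RUNX core, spelled TGTGGT or TGCGGT, stood in 12 (27.9%), against 25.0% of all genes. The cell cycle homology region, spelled TTTGAA or TTCGAA and best known from genes of G2 and mitosis, stood in 9 (20.9%), against 21.7% of all genes, and in 16 of 21 genes of a list of G2 and mitosis genes. The E2F motif stood in 1 of those 21 genes. These are counts of letters in a window and say nothing of binding.

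Per kb of exon, Pcna, the sliding clamp, had the highest level of the 51 genes in every group, with a group mean of 238 CPM per kb in HSC hom, 221 in HSC het, 273 in HSC WT, 311 in HPC hom, 291 in HPC het and 317 in HPC WT. The helicase subunits Mcm6, Mcm3 and Mcm7 followed in that order in all 6 groups, at 117, 112 and 92.4 CPM per kb in HSC WT and at 133, 133 and 109 CPM per kb in HPC WT. Mcm6 and Mcm3 differed by less than the larger of their SDs over 3 libraries in HSC hom, HSC het, HSC WT and HPC WT, so their order there is within the spread. Of the genes with counts, Orc1, the largest subunit of the origin recognition complex, was lowest in every group, at 1.94 CPM per kb in HSC WT and 1.76 in HPC WT. Together the 51 genes took 0.463% to 0.662% of all counts in a library.

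Libraries of one group differed from each other across most of the 50 genes at once. In HPC WT, replicate 1 was above the mean of its group for 50 of 50 genes, replicate 2 for 3 and replicate 3 for 4. In HSC hom, 44 genes of replicate 1, 11 of replicate 2 and 0 of replicate 3 were above the HSC WT mean. In HSC het the counts were 3, 0 and 10 of 50, in HSC WT 48, 18 and 3, in HPC hom 29, 19 and 9, and in HPC het 1, 2 and 5. The 3 het libraries of each cell type were thus low for most genes, while the hom libraries of HSC spread on both sides of the WT mean.

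**Figure D1:**
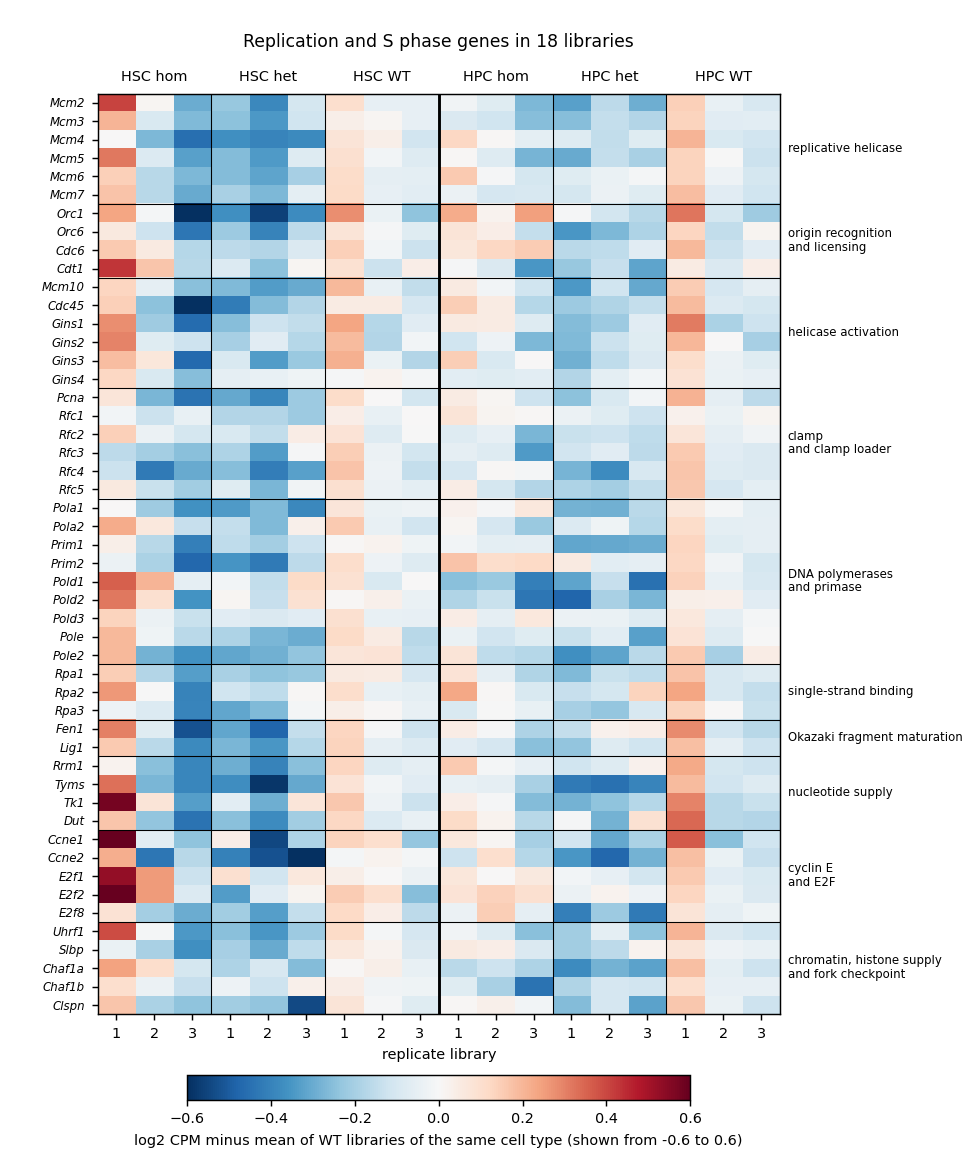
Log2 CPM of 50 genes (by role, top to bottom) in the 18 libraries (left to right, numbered by replicate), each minus the mean of the 3 WT libraries of its cell type, in colours from -0.6 (blue) to 0.6 (red); Rrm2, with 0 counts, is not drawn. The het libraries are mostly blue, replicate 1 of HSC hom and replicate 1 of HPC WT are mostly red, and replicate 3 of HSC hom is blue.

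Averaged over the 50 genes, log2 CPM relative to the WT mean of the cell type was 0.19, -0.09 and -0.30 in the HSC hom libraries. It was -0.20, -0.29 and -0.15 in HSC het and 0.10, -0.02 and -0.08 in HSC WT. It was 0.02, -0.03 and -0.13 in HPC hom, -0.21, -0.16 and -0.15 in HPC het and 0.16, -0.07 and -0.09 in HPC WT. A list of 25 genes of G2 and mitosis, the stages after replication, had a different order in HSC, with -0.20, -0.21 and -0.23 in hom, -0.16, -0.14 and -0.13 in het and 0.05, -0.05 and -0.01 in WT. In HSC hom the replication genes thus spanned 0.50 log2 units and the G2 and mitosis genes 0.03. In the same libraries the 7 lists of other pathway genes (below) spanned from 0.04 for E2F and RB family genes to 0.44 for chromatin genes. A list of 7 stem cell markers spanned 0.765. In HPC the G2 and mitosis list had -0.05, 0.00 and -0.02 in hom, -0.27, -0.14 and -0.15 in het and 0.06, -0.09 and 0.03 in WT.

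**Figure D2:**
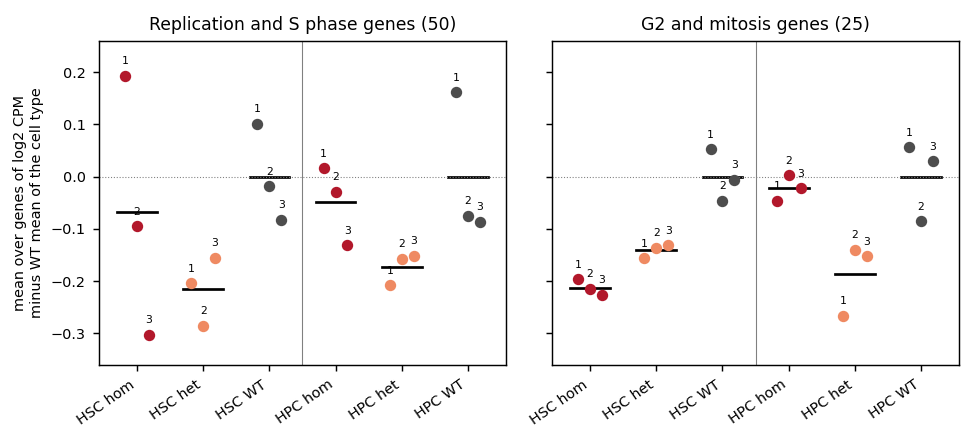
Mean over genes of log2 CPM minus the WT mean of the same cell type, for the 50 replication and S phase genes (left panel) and 25 genes of G2 and mitosis (right panel); points are libraries with their replicate number, bars are group means. The HSC hom points run from -0.30 to 0.19 on the left and from -0.23 to -0.20 on the right, and the het points are below 0 in both panels.

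In HPC, 12 of the 50 tested genes were lower in het than in WT (edgeR quasi-likelihood test, Benjamini-Hochberg adjusted over 13855 genes, called at an adjusted p under 0.05) and 0 were higher. Over all genes tested, 6.99% were lower and 9.15% higher (16.1% in all). All 50 fitted log2 fold changes were negative, with a median of -0.17 and a range from -0.43 for Tyms to -0.02 for E2f2, against a median of 0.00 over all genes tested. The values of 22 genes did not overlap between the groups, all lower in het, where 16.2% of all genes tested lay apart in that direction and 33.9% in either. An unadjusted p under 0.05 was reached by 23 of the 50 genes, against 28.6% of all genes tested. In bulk RNA, fewer cells in S phase and less RNA per cell cannot be told apart.

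The polymerases held 4 of the 12 genes. Prim1, the catalytic subunit of primase (chr10:128015215-128030030, plus strand, mm10), had 66.3, 64.4 and 64.6 CPM in hom, 54.1, 54.2 and 54.5 CPM in het and 73.3, 63.7 and 64.6 CPM in WT libraries, and het against WT gave a log2 fold change of -0.31 ± 0.06 (adjusted p = 0.00288). Pola1, the catalytic subunit of polymerase alpha (chrX:93304766-93632387, minus strand, mm10), had 208, 203 and 213 CPM in hom, 167, 167 and 182 CPM in het and 214, 202 and 196 CPM in WT libraries. For Pola1, het over WT gave a log2 fold change of -0.25 ± 0.06 (adjusted p = 0.00751). For both genes the het libraries lay below every WT and every hom library. Pold1, the catalytic subunit of polymerase delta (chr7:44532744-44548815, minus strand, mm10), had 112, 115 and 100.5 CPM in hom, 107, 122 and 97.9 CPM in het and 147, 129.6 and 125 CPM in WT libraries. For Pold1, het over WT gave a log2 fold change of -0.30 ± 0.08 (adjusted p = 0.0165). Its partner subunit Pold2 had 68.5, 70.8 and 57.4 CPM in hom, 55.8, 67.8 and 64.3 CPM in het and 79.6, 79.3 and 74.0 CPM in WT libraries, with a log2 fold change of -0.31 ± 0.08 (adjusted p = 0.0143). For both subunits of polymerase delta every het and every hom library lay below every WT library. The other 5 polymerase and primase genes were not called, with log2 fold changes from -0.29 for Pole2, an accessory subunit of polymerase epsilon, to -0.02 for Prim2, the regulatory subunit of primase.

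Of 4 tested genes of nucleotide supply, 1 was lower. Tyms, the thymidylate synthase that makes dTMP (chr5:30038546-30073645, minus strand, mm10), had 46.4, 46.1 and 41.9 CPM in hom, 35.6, 35.1 and 36.4 CPM in het and 54.6, 44.3 and 45.4 CPM in WT libraries, and het against WT gave a log2 fold change of -0.43 ± 0.08 (adjusted p = 0.00119), the lowest of the 50 genes. No het library overlapped with the other groups. Rrm1, Tk1 (the salvage kinase for thymidine) and Dut (which clears dUTP) were not called, at -0.06, -0.25 and -0.08.

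Among the 5 genes of cyclin E and E2F, 2 were lower. E2f8, a repressor of the E2F family (chr7:48866429-48882073, minus strand, mm10), had 83.5, 95.0 and 82.5 CPM in hom, 64.3, 73.5 and 63.8 CPM in het and 90.5, 82.6 and 84.1 CPM in WT libraries. For E2f8, het over WT gave a log2 fold change of -0.35 ± 0.07 (adjusted p = 0.00245). The cyclin gene Ccne2 had 17.3, 20.2 and 16.8 CPM in hom, 14.8, 13.6 and 15.5 CPM in het and 21.4, 18.4 and 17.2 CPM in WT libraries, with a log2 fold change of -0.37 ± 0.11 (adjusted p = 0.021). In both genes the het libraries were the lowest 3 of the 9. Ccne1 had 9.29, 8.12 and 8.82 CPM in HPC het libraries, against 13.03, 8.45 and 9.26 CPM in HPC WT libraries, where replicate 1 of WT stood above the rest, with a log2 fold change of -0.23 ± 0.15 (adjusted p = 0.332) and no call. The activator E2f1 had 49.5, 48.4 and 46.5 CPM in HPC het libraries, against 56.0, 47.8 and 47.1 CPM in HPC WT libraries, ranges that overlap, with a log2 fold change of -0.06 ± 0.07 (adjusted p = 0.625). The activator E2f2, highest of the 50 genes in this comparison, had 20.1, 21.0 and 20.2 CPM in HPC het libraries, against 22.6, 20.1 and 19.4 CPM in HPC WT libraries, with a log2 fold change of -0.02 ± 0.08 (adjusted p = 0.922).

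Licensing and helicase genes held 3 of the 12. Mcm2, a subunit of the MCM ring, had 246, 237 and 206 CPM in hom, 199, 224 and 203 CPM in het and 275, 242 and 233 CPM in WT libraries. For Mcm2, het over WT gave a log2 fold change of -0.26 ± 0.08 (adjusted p = 0.0254). The other 5 MCM ring genes ranged from -0.21 to -0.04 without a call. Orc6, a subunit of the origin recognition complex, had 38.4, 37.5 and 33.0 CPM in hom, 28.5, 30.2 and 32.0 CPM in het and 39.9, 32.9 and 36.9 CPM in WT libraries, with a log2 fold change of -0.27 ± 0.09 (adjusted p = 0.0383). Mcm10, which helps to start the helicase, had 70.6, 67.4 and 62.7 CPM in hom, 53.7, 62.7 and 55.0 CPM in het and 75.7, 63.5 and 65.6 CPM in WT libraries, with a log2 fold change of -0.26 ± 0.08 (adjusted p = 0.0321). For each of these 3 genes every het library lay below every WT library. The loader gene Cdc6 had 59.7, 60.1 and 63.8 CPM in HPC het libraries, against 76.5, 61.1 and 63.7 CPM in HPC WT libraries, with a log2 fold change of -0.13 ± 0.08 (adjusted p = 0.272). The helicase activator Cdc45 had 37.2, 38.1 and 39.1 CPM in HPC het libraries, against 49.3, 40.8 and 40.1 CPM in HPC WT libraries, with a log2 fold change of -0.19 ± 0.09 (adjusted p = 0.183). Neither was called, and het and WT were apart for Cdc45 but not for Cdc6.

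In the group of chromatin, histone supply and fork checkpoint, 2 of 5 genes were lower. Chaf1a, the large subunit of the chromatin assembly factor that places histones behind the fork (chr17:56040416-56068026, plus strand, mm10), had 98.6, 101 and 96.9 CPM in hom, 85.0, 90.5 and 88.4 CPM in het and 125, 106 and 101 CPM in WT libraries. For Chaf1a, het over WT gave a log2 fold change of -0.33 ± 0.07 (adjusted p = 0.00312). Clspn, the claspin adaptor of the replication checkpoint, had 72.7, 73.9 and 71.5 CPM in hom, 60.5, 67.5 and 58.0 CPM in het and 81.0, 70.4 and 66.5 CPM in WT libraries, with a log2 fold change of -0.23 ± 0.08 (adjusted p = 0.0456). Het and WT were apart for Chaf1a and overlapped for Clspn. Uhrf1, which guides maintenance methylation of new DNA, had 196, 218 and 192 CPM in HPC het libraries, against 261, 213 and 209 CPM in HPC WT libraries, with a log2 fold change of -0.17 ± 0.08 (adjusted p = 0.186), and was not called.

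No gene was called among the 6 of the clamp and its loader, the 3 of RPA and the 2 of Okazaki fragment maturation. Pcna had 336, 373 and 393 CPM in HPC het libraries, against 459.8, 383 and 357 CPM in HPC WT libraries, with a log2 fold change of -0.12 ± 0.09 (adjusted p = 0.381). Rpa2, the middle subunit of RPA, had 60.7, 62.1 and 73.5 CPM in HPC het libraries, against 78.8, 62.5 and 60.6 CPM in HPC WT libraries, with a log2 fold change of -0.04 ± 0.11 (adjusted p = 0.866). Lig1, the ligase of lagging strands, had 155, 173 and 168 CPM in HPC het libraries, against 207, 176 and 168 CPM in HPC WT libraries, with a log2 fold change of -0.15 ± 0.08 (adjusted p = 0.21). In all 3 genes het and WT overlapped, and the highest value was that of WT replicate 1.

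The count depended on single libraries. Without replicate 1 of HPC WT, the library in which all 50 genes were above the group mean, 5 genes were lower in het and the median log2 fold change was -0.08. Without replicate 1 of HPC het, 5 genes were lower as well. They were Tyms, Prim1, Pola1, E2f8 and Chaf1a in both cases. These 5 were called in each of the 6 fits that left out 1 library of the 2 groups. Their adjusted p was 0.00135 to 0.00747 for Tyms, 0.00434 to 0.0188 for Prim1, 0.00414 to 0.0409 for Pola1, 0.00151 to 0.0161 for E2f8 and 0.00169 to 0.0191 for Chaf1a. The libraries differ across most of the genes at once, so the 12 calls are not 12 separate observations.

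**Figure D3:**
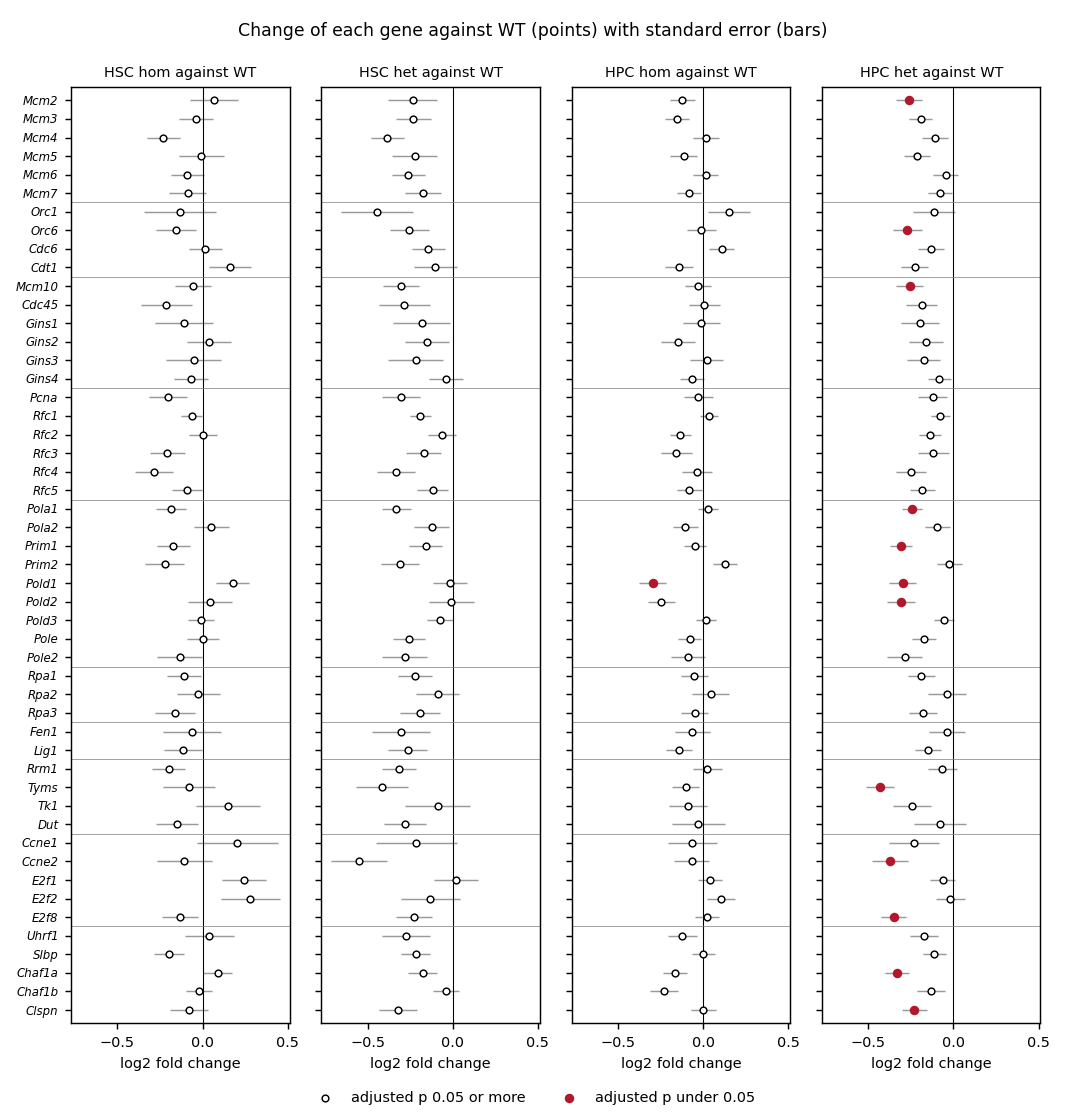
Log2 fold change of each of the 50 genes, with its standard error, for hom and het against WT in HSC and in HPC; filled points passed an adjusted p under 0.05, and lines part the roles named in the heat map. Filled points are 12 in HPC het and 1 in HPC hom, and all 50 points of HPC het are left of 0.

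Genes of the same pathway outside the 51 were counted by list. Over all genes tested in HPC het against WT, 6.99% were lower and 9.15% higher. In HPC het against WT, 5 of 14 further genes of origin firing were lower, led by Wdhd1 (-0.72), which links polymerase alpha to the helicase, Mtbp (-0.81), a partner of the firing factor TICRR, Recql4 (-0.51) and Orc2 (-0.27). Of 14 tested fork genes, 5 were lower, Timeless (-0.23), Tipin (-0.27), Atad5 (-0.22) and Pole3 (-0.24) among them, and Timeless and Tipin form the fork protection complex. Of 13 tested genes of checkpoint and repair, 6 were lower, among them Brca2 (-0.31) and Atr (-0.25). Nucleotide genes were mixed, with Dtymk (-0.29) and Dctd (-0.31) lower and Samhd1 (0.32), which degrades dNTPs, higher among 12. Of 10 chromatin genes Hells (-0.25) was lower, and of 10 E2F and RB family genes E2f7 (-0.49), Rbl1 (-0.23) and E2f4 (-0.24) were lower. Of 14 genes of cyclins and CDK control, Ccnd1 (-0.53), Ccnd2 (-0.25) and Ccna2 (-0.28) were lower and the CDK inhibitor Cdkn1b (0.29) was higher. In the list of 25 genes of G2 and mitosis 9 were lower, among them Mki67 (-0.33), Cenpf (-0.28), Aurka (-0.33) and Foxm1 (-0.32).

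Markers of other blood cells moved in the same comparison, where 6.99% of all genes tested were lower and 9.15% higher. All 7 monocyte markers were higher in HPC het, with a summed level of 651 to 665 CPM in het and 332 to 380.4 CPM in WT. Of 9 neutrophil markers 4 were higher, with sums of 1889 to 2288 CPM in het and 1521 to 1614 CPM in WT. Of 6 megakaryocyte markers 4 were lower, with sums of 229 to 309 CPM in het and 458 to 516 CPM in WT, and Gata1 and Epor were lower among 6 tested erythroid markers, whose sums were 78.0 to 105 CPM in het and 80.8 to 93.7 CPM in WT. Dendritic sums were 385 to 411 CPM in het and 201 to 243 CPM in WT, where 1 of 5 markers, Flt3, was higher. Eosinophil sums were 25.8 to 31.6 CPM in het and 11.6 to 13.9 CPM in WT, with 1 of 2 tested markers higher, and mast cell and basophil sums were 228 to 248 CPM in het and 295 to 332 CPM in WT, with 2 of 6 tested markers higher and 2 lower. No marker of these 7 lists was at 0 in either group, while the T-cell gene Cd3e was at 0 in both. The sums of the whole T-cell list were 6.96 to 7.94 CPM in het and 11.9 to 13.2 CPM in WT. B-cell sums were 15.9 to 19.2 CPM in het and 11.4 to 13.8 CPM in WT. Stem cell sums were 399 to 416 CPM in het and 375 to 392 CPM in WT. Slamf1, which encodes CD150, was at 3.00, 3.90 and 3.12 CPM in het and 9.09, 8.82 and 12.01 CPM in WT. The part of these markers in the replication genes was not tested.

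In HPC hom against WT, 1 of the 50 genes was lower, Pold1, and 0 were higher, where 4.29% of all genes tested were lower and 4.92% higher (9.21% in all). Pold1 had a log2 fold change of -0.30 ± 0.08 (adjusted p = 0.0249) in hom and -0.30 in het, both set against the same 3 WT libraries. The highest log2 fold change was that of Orc1, with 16.5, 14.3 and 16.8 CPM in hom and 17.6, 13.1 and 12.2 CPM in WT, with a log2 fold change of 0.15 ± 0.12 (adjusted p = 0.531) and no call. Of the 50 genes 17 had a positive and 33 a negative log2 fold change, with a median of -0.05, and 5 were lower without overlap, against 13.2% of all genes tested. They were Pold1, Pold2, Chaf1b, Mcm3 and Gins4. An unadjusted p under 0.05 was reached by 5 of the 50 genes, against 21.6% of all genes tested. The genes fixed for each role had log2 fold changes of hom over WT of -0.12 ± 0.08 for Mcm2, 0.11 ± 0.07 for Cdc6, 0.01 ± 0.09 for Cdc45, -0.03 ± 0.09 for Pcna, 0.03 ± 0.06 for Pola1, 0.04 ± 0.11 for Rpa2, -0.14 ± 0.08 for Lig1, -0.06 ± 0.14 for Ccne1, 0.04 ± 0.07 for E2f1, -0.12 ± 0.08 for Uhrf1 and 0.00 ± 0.07 for Clspn, none of them called. Without replicate 1 of HPC WT, no gene was lower, the median was 0.04 and 12 genes were higher without overlap. The share of all genes lying apart was not counted for fits without 1 library, and groups of fewer libraries lie apart more easily. Pold1 lost its call in 4 of the 6 fits without 1 library, at an adjusted p of 0.113 without WT replicate 1, 0.0522 without WT replicate 2, 0.051 without hom replicate 1 and 0.104 without hom replicate 3.

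Of 87 pathway genes outside the 51, 6 were lower in HPC hom than in WT and 0 higher, where 4.29% of all genes tested were lower. Ccnd1 (cyclin D1, -1.10), the CDK inhibitors Cdkn1c (-0.70) and Cdkn1a (-0.23), E2f7 (-0.36), Dctd (-0.26) and Wdhd1 (-0.41) were the 6 lower genes, and 0 of the 25 genes of G2 and mitosis were called. Marker genes of other cells moved as well, with 7 of 9 neutrophil markers (2505 to 2668 CPM in hom, 1521 to 1614 CPM in WT) and 7 of 7 monocyte markers (646 to 723 CPM in hom, 332 to 380.4 CPM in WT) higher in hom. Eosinophil sums were 28.9 to 38.7 CPM in hom and 11.6 to 13.9 CPM in WT. Stem cell sums were lower, at 333 to 340.3 CPM in hom and 375 to 392 CPM in WT. Dendritic sums were 244 to 295 CPM in hom and 201 to 243 CPM in WT. The mean log2 CPM of the dendritic list relative to WT was lower, at -1.05 to -0.78 in hom. Megakaryocyte, erythroid, and mast cell and basophil sums overlapped. The part of these markers was not tested.

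Hom was also set against het in HPC, which shares the hom and het libraries with the comparisons above. Here 4 of the 50 genes were higher in hom and 0 lower, where 3.63% of all genes tested were higher and 5.77% lower (9.4% in all). E2f8 was at 0.37 ± 0.07 (adjusted p = 0.00324), Pola1 at 0.27 ± 0.06 (adjusted p = 0.0067), Prim1 at 0.26 ± 0.07 (adjusted p = 0.0159) and Tyms at 0.33 ± 0.08 (adjusted p = 0.0163), as log2 fold changes of hom over het. The lowest of the 50 genes, Chaf1b (small subunit of the chromatin assembly factor), had 51.6, 47.3 and 39.8 CPM in HPC hom libraries, against 47.9, 50.4 and 50.0 CPM in HPC het libraries, with a log2 fold change of -0.10 ± 0.08 (adjusted p = 0.508) and no call. The log2 fold change was positive for 45 genes and negative for 5, with a median of 0.11, and 16 genes were higher without overlap, against 12.7% of all genes tested. Without replicate 1 of HPC het, 2 genes were higher, Pola1 and E2f8, which were called in each of the 6 fits without 1 library. Among the 87 other pathway genes tested 15 were higher in hom, including Mtbp (0.60), Orc2 (0.32), Dna2 (0.35) and Atad5 (0.31), and Ccnd1 (-0.57) and Rbl2 (-0.21) were lower. Of the 25 genes of G2 and mitosis 6 were higher. In the same comparison 6 of 9 neutrophil markers were higher in hom (2505 to 2668 CPM in hom, 1889 to 2288 CPM in het) and 4 of 7 stem cell markers were lower (333 to 340.3 CPM in hom, 399 to 416 CPM in het), and their part was not tested.

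**Figure D4:**
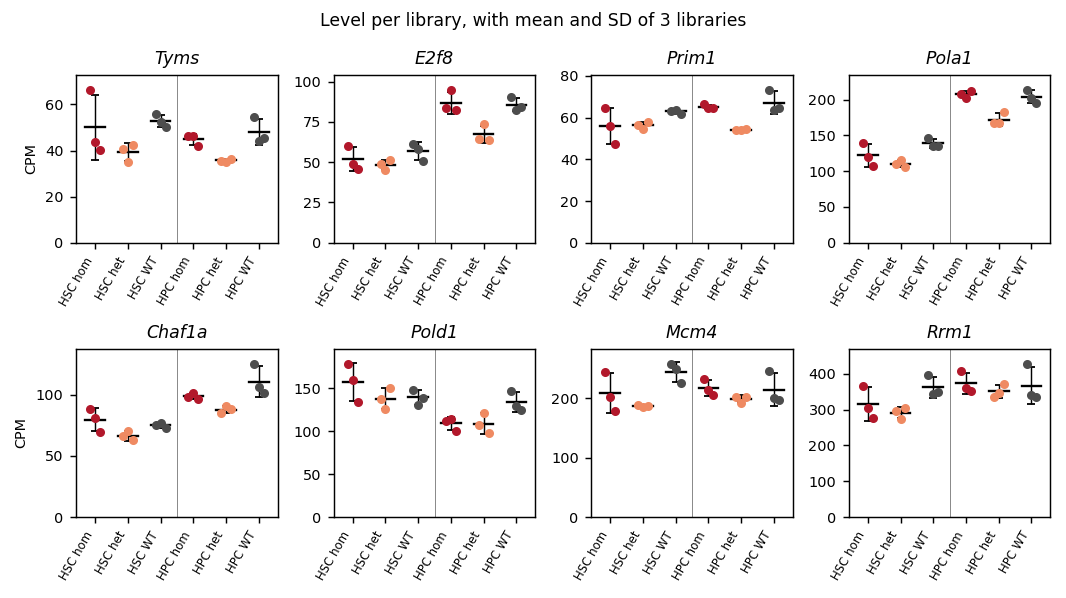
CPM of 8 genes by library (points), with the mean and SD of each group of 3 (bars), in HSC and HPC of each genotype. Within HPC, Tyms, Prim1, Pola1 and E2f8 are lowest in het and Pold1 is low in hom and het alike, and Mcm4 and Rrm1 in HSC het lie below HSC WT.

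In HSC het against WT, 0 of the 50 genes were called by edgeR, where it called 0.0267% of all 14959 genes tested higher and 0.00668% lower (0.0334% in all). DESeq2 called 2 of the 50 genes, Mcm4 and Pola1, both lower in het, among 216 genes called in all. When only the HSC het and WT libraries were fitted, edgeR called 7 lower among 299 genes called in all. An unadjusted p under 0.05 was reached by 20 of the 50 genes, against 13.8% of all genes tested, and 30 genes were lower in het without overlap, against 11.6%. Fitted log2 fold changes were negative for 49 of the 50 genes, with a median of -0.22, and E2f1 alone was positive, at 0.02 ± 0.13. Over all genes and the 3 genotypes, the libraries of HSC varied more than those of HPC around their group means, with a common edgeR dispersion of 0.0128 in HSC and 0.00483 in HPC. For the mean log2 CPM of the 50 genes, the span of 3 libraries was 0.50 in HSC hom, 0.13 in HSC het and 0.18 in HSC WT. In HPC it was 0.15 in hom, 0.06 in het and 0.25 in WT.

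No gene of HSC het passed the test, and the following values are those of the genes with the smallest p and of a set chosen by role. Mcm4 had 244, 202 and 178 CPM in hom, 188, 185 and 187 CPM in het and 257, 249 and 225 CPM in WT libraries. For Mcm4, het over WT gave a log2 fold change of -0.38 ± 0.10 (adjusted p = 0.169). Mcm2 had 290.4, 221 and 178 CPM in hom, 187, 168 and 204 CPM in het and 235, 212 and 212 CPM in WT libraries, with a log2 fold change of -0.24 ± 0.14 (adjusted p = 0.494). Het and WT were apart for both genes, and hom overlapped with each of them. Pola1 had 139, 119.8 and 108 CPM in hom, 109.6, 115 and 106 CPM in het and 146, 135 and 136 CPM in WT libraries, with a log2 fold change of -0.33 ± 0.09 (adjusted p = 0.181). Rrm1 had 366, 304 and 276 CPM in hom, 295, 274 and 303 CPM in het and 395, 342 and 348 CPM in WT libraries, with a log2 fold change of -0.32 ± 0.10 (adjusted p = 0.22). For these genes, too, every het library was below every WT library. Ccne2, the gene with the lowest log2 fold change, had 16.1, 10.2 and 12.3 CPM in hom, 10.5, 9.63 and 8.31 CPM in het and 13.8, 14.1 and 13.8 CPM in WT libraries, with a log2 fold change of -0.55 ± 0.16 (adjusted p = 0.209). Tyms, lowest in HPC, had 66.3, 43.6 and 40.1 CPM in hom, 40.7, 35.1 and 42.6 CPM in het and 55.8, 52.2 and 50.3 CPM in WT libraries, with a log2 fold change of -0.42 ± 0.15 (adjusted p = 0.282).

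The remaining genes chosen by role gave Cdc6 at -0.14 ± 0.09 (adjusted p = 0.531), Cdc45 at -0.28 ± 0.15 (adjusted p = 0.421), Pcna at -0.31 ± 0.11 (adjusted p = 0.264) and Rpa2 at -0.09 ± 0.13 (adjusted p = 0.804), as log2 fold changes of het over WT. Lig1 was at -0.27 ± 0.11 (adjusted p = 0.33), Ccne1 at -0.22 ± 0.24 (adjusted p = 0.733), Uhrf1 at -0.27 ± 0.14 (adjusted p = 0.425) and Clspn at -0.32 ± 0.11 (adjusted p = 0.256). E2f1 had 53.5, 46.2 and 52.3 CPM in HSC het libraries, against 51.2, 50.1 and 48.8 CPM in HSC WT libraries, with full overlap of the ranges. The log2 fold change of E2f1 was negative in 3 of the 6 fits without 1 library, with a range from -0.02 to 0.08. No gene of the 7 other pathway lists or of the G2 and mitosis list was called, and the medians of the lists ran from -0.30 for checkpoint and repair to -0.08 for nucleotide supply. No marker of another blood cell type was called in this comparison, with monocyte sums of 180.5 to 196 CPM in het and 177 to 194 CPM in WT and neutrophil sums of 67.5 to 76.4 CPM in het and 67.9 to 82.3 CPM in WT. Stem cell marker sums did not overlap, at 1101 to 1298 CPM in HSC het and 921 to 1045 CPM in HSC WT. The part of these markers in the replication genes was not tested.

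In HSC hom against WT, 0 of the 50 genes were called by edgeR and 0 by DESeq2, where edgeR called 1.2% of all genes tested higher and 0.802% lower (2.01% in all), and 3 of the 50 reached an unadjusted p under 0.05, against 18.4% of all genes tested. The lowest log2 fold change was that of Rfc4, a subunit of the clamp loader, with 26.7, 21.7 and 23.7 CPM in HSC hom libraries, against 32.9, 28.6 and 26.4 CPM in HSC WT libraries and a log2 fold change of -0.29 ± 0.11 (adjusted p = 0.196). The highest was that of E2f2, with 26.5, 20.6 and 16.2 CPM in HSC hom libraries, against 19.1, 18.5 and 14.4 CPM in HSC WT libraries and a log2 fold change of 0.28 ± 0.17 (adjusted p = 0.402). E2f1 had 72.1, 59.8 and 45.8 CPM in HSC hom libraries, against 51.2, 50.1 and 48.8 CPM in HSC WT libraries, with a log2 fold change of 0.24 ± 0.13 (adjusted p = 0.33). In E2f1 and E2f2 replicate 1 of hom was the highest of the 6 libraries and replicate 3 lay below or within the WT range. The other genes fixed for each role had log2 fold changes of hom over WT of 0.07 ± 0.14 for Mcm2, 0.02 ± 0.09 for Cdc6, -0.21 ± 0.15 for Cdc45, -0.20 ± 0.11 for Pcna, -0.18 ± 0.09 for Pola1, -0.03 ± 0.13 for Rpa2, -0.12 ± 0.11 for Lig1, 0.20 ± 0.24 for Ccne1, 0.04 ± 0.14 for Uhrf1 and -0.08 ± 0.11 for Clspn. Over the 50 genes the median was -0.07, 15 were positive and 35 negative, and 1 was lower without overlap, Rfc3, against 12% of all genes tested.

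These figures rest on which hom libraries are counted. Without replicate 1 of HSC hom, 6 genes were lower (Mcm4, Cdc45, Pcna, Pola1, Rrm1 and Dut), the median was -0.21 and 29 genes were lower without overlap, in a fit that called 592 genes in all (300 with every library). Without replicate 3 of HSC hom, E2f1 was higher and no gene was lower, the median was 0.03 and 6 genes were higher without overlap, in a fit that called 638 genes in all. The share of all genes lying apart was not counted for these fits, and groups of fewer libraries lie apart more easily. For hom against het in HSC, 0 genes were called by edgeR and 0 by DESeq2, where edgeR called 0.0134% of all genes tested. An unadjusted p under 0.05 was reached by 7 of the 50 genes, against 11.7% of all genes tested. The log2 fold change was positive for 47 genes, with a median of 0.15. The 3 genes Pole, Mcm10 and Rfc1 were higher without overlap and 0 lower, against 7.45% and 8.57% of all genes tested. The highest gene, Ccne2, was at 0.44 ± 0.16 (adjusted p = 0.311) and the lowest, Rfc3, at -0.04 ± 0.10 (adjusted p = 0.931). Without replicate 3 of HSC hom, 5 genes were higher than in het (Mcm2, Cdt1, E2f1, Uhrf1 and Chaf1a), the median was 0.26 and 28 genes were higher without overlap (share of all genes not counted), in a fit that called 408 genes in all. With replicate 1 of HSC hom left out instead, the median was 0.01. The hom libraries of HSC were alike in the 25 genes of G2 and mitosis, of which 5 were lower than in WT, among them Ccnb1 (-0.46), Nusap1 (-0.41), Prc1 (-0.32) and Kif11 (-0.29). Among the pathway lists Ccna2 (-0.36), Cmpk1 (-0.31) and Dbf4 (-0.38), which activates the CDC7 kinase at origins, were lower. Of all genes tested, 0.802% were lower in hom than in WT. Stem cell marker sums were 816 to 1328 CPM in HSC hom and 921 to 1045 CPM in HSC WT. Neutrophil sums were 76.9 to 101.5 CPM in hom and 67.9 to 82.3 CPM in WT, and monocyte sums 170 to 186 CPM in hom and 177 to 194 CPM in WT. The part of these markers was not tested.

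Whether the effect of a genotype differed between HSC and HPC was tested in 1 fit of all 18 libraries. For hom, 0 of the 50 genes differed by edgeR and 1 by DESeq2 (Pold1), where edgeR called 2.79% of all 15431 genes tested (1.06% higher, 1.73% lower). An unadjusted p under 0.05 was reached by 3 of the 50 genes, against 17.8% of all genes tested. Pold1 had the largest difference, 0.45 ± 0.14 (adjusted p = 0.0871) on the log2 scale, with 178, 160.1 and 134 CPM in HSC hom libraries, against 148, 131 and 139 CPM in HSC WT libraries, and the lower HPC values given above. Prim2 had the lowest, -0.37 ± 0.14 (adjusted p = 0.139), with 39.7, 35.7 and 29.4 CPM in HSC hom libraries, against 43.8, 39.9 and 38.6 CPM in HSC WT libraries, and 51.1, 48.9 and 49.3 CPM in HPC hom libraries, against 49.5, 44.9 and 42.3 CPM in HPC WT libraries. Without replicate 3 of HSC hom, Pold1 and Pold2 were called higher in this comparison, in a fit that called 941 genes in all (431 with every library). Without replicate 1 of HSC hom, Pola1 and Prim2 were called lower, in a fit that called 473. For het, 0 genes differed by edgeR and 0 by DESeq2, where edgeR called 1.94% of all genes tested (1.14% lower). An unadjusted p under 0.05 was reached by 2 of the 50 genes, against 12.9% of all genes tested. The het differences ran from -0.34 for Orc1 to 0.29 for Pold2, with a median of -0.04. The larger number of calls in HPC het than in HSC het is therefore no measured difference of the effects.

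Between the unperturbed cell types, 26 of the 50 genes were lower in WT HSC than in WT HPC and 1 was higher, where 27.2% of all genes tested were lower and 27.7% higher. The values of 28 genes were lower without overlap (31.9% of all genes tested) and of 1 higher without overlap (32.7%). The median log2 fold change of the 50 genes was -0.28, against 0.03 over all genes tested, with 10 genes positive and 40 negative. This comparison depends on the scaling: with library totals in place of TMM factors, 13 genes were lower and 7 higher, the median of the 50 genes was -0.10 and that of all genes 0.21, and the values below are relative to the bulk of genes. With replicate 1 of HPC WT left out, 20 genes were lower. Levels of the 50 genes in this comparison are CPM on the scale of the 18-library fit. The sums of marker lists given for it below are instead scaled within each cell type.

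E2f8 had 57.7, 54.9 and 47.5 CPM in WT HSC, against 98.0, 88.2 and 90.3 CPM in WT HPC, with a log2 fold change of -0.79 ± 0.09 (adjusted p = 3.3e-07), the lowest of the 50 genes. Chaf1a had 70.7, 72.5 and 68.2 CPM in WT HSC, against 136, 113 and 109 CPM in WT HPC, with a log2 fold change of -0.76 ± 0.08 (adjusted p = 8.42e-08). Pola1, which lies on chromosome X, had 137, 127 and 127 CPM in WT HSC, against 231, 216 and 209.9 CPM in WT HPC, with a log2 fold change of -0.75 ± 0.08 (adjusted p = 2.26e-08), and the part of sex chromosome content was not tested. All 3 genes were apart between the cell types by more than the spread of either. The GINS complex, part of the working helicase, had 3 of its 4 genes lower (Gins1 and Gins4 with library totals), Gins1 at -0.67 ± 0.15 (adjusted p = 0.00091), Gins4 at -0.55 ± 0.08 (adjusted p = 8.81e-06) and Gins2 at -0.44 ± 0.12 (adjusted p = 0.00373). Of the 6 MCM ring genes 5 were lower, from -0.44 for Mcm3 to -0.36 for Mcm5 (Mcm3, Mcm6 and Mcm7 with library totals), and Mcm4 was at -0.01 ± 0.10 (adjusted p = 0.946), with 241, 235 and 211 CPM in WT HSC, against 266, 214 and 211 CPM in WT HPC. The WT ranges of Mcm4 overlapped, and whether it differs from the other 5 was not tested.

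Of the clamp and its loader, Pcna, Rfc1, Rfc2 and Rfc4 were lower and Rfc3 and Rfc5 were not called, while with library totals Rfc1 and Rfc2 were lower and Rfc3 and Rfc5 higher. Pcna had 348, 324 and 298 CPM in WT HSC, against 498, 409 and 383 CPM in WT HPC, with a log2 fold change of -0.41 ± 0.11 (adjusted p = 0.00429), and Rfc1 was at -0.38 ± 0.06 (adjusted p = 4.1e-06). Ccne2 had 12.9, 13.3 and 12.9 CPM in WT HSC, against 23.2, 19.6 and 18.4 CPM in WT HPC, with a log2 fold change of -0.64 ± 0.14 (adjusted p = 0.000382), and of the E2F genes E2f2 was lower too while E2f1 was at -0.20 ± 0.11 (adjusted p = 0.126). None of the 4 tested nucleotide supply genes was called, from -0.22 for Rrm1 to 0.25 for Tk1. Chaf1b, the small subunit of the chromatin assembly factor, was the 1 gene higher in HSC, with 75.7, 72.6 and 71.9 CPM in WT HSC, against 62.8, 55.9 and 56.1 CPM in WT HPC and a log2 fold change of 0.33 ± 0.08 (adjusted p = 0.00186), opposite to its partner Chaf1a. With library totals in place of TMM, the genes lower in HSC were Mcm3, Mcm6, Mcm7, Mcm10, Gins1, Gins4, Rfc1, Rfc2, Pola1, Ccne2, E2f8, Slbp (the histone mRNA binding protein) and Chaf1a, and those higher were Chaf1b, Rfc3, Rfc5, Pola2, Pold3, Pole2 and Tk1.

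**Figure D5:**
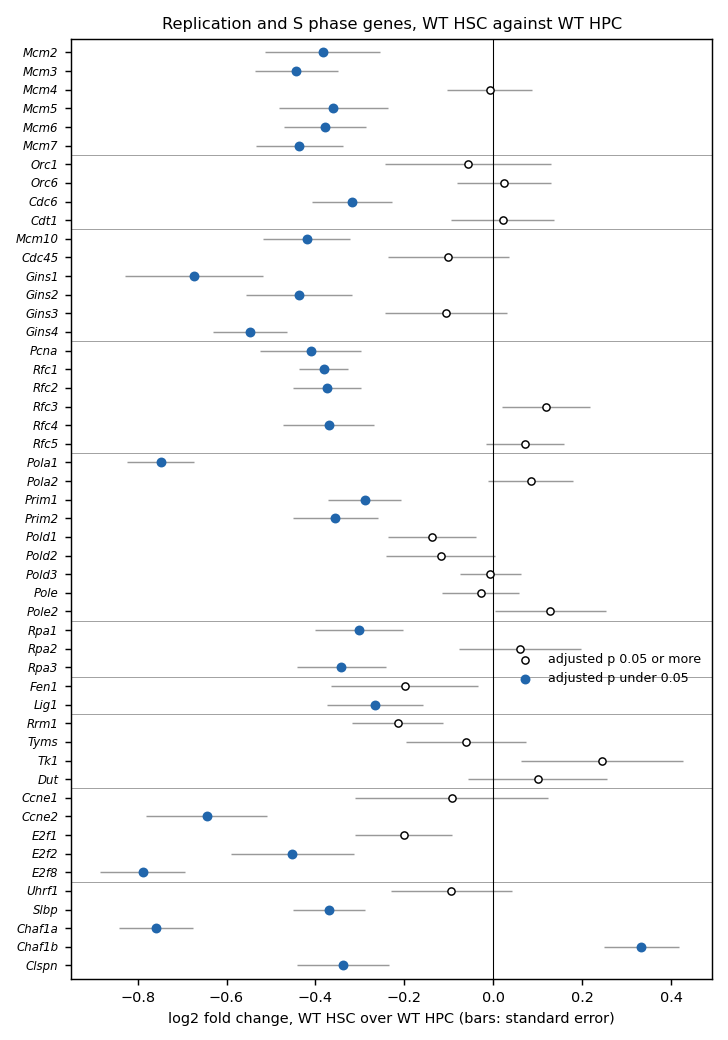
Log2 fold change of WT HSC over WT HPC for each of the 50 genes, with its standard error, in the order of roles of the heat map; filled points passed an adjusted p under 0.05. Of the filled points 26 are left of 0 and 1, Chaf1b, is right of it; with library totals in place of TMM the calls were 13 lower and 7 higher.

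Of the other pathway genes, whose calls were not recomputed with library totals, 9 of 10 chromatin genes were lower in WT HSC, led by Supt16 (-0.88), a subunit of the histone chaperone FACT, as were 8 of 12 nucleotide genes. Over all genes tested in this comparison, 27.2% were lower and 27.7% higher. Origin and fork genes were mixed, with Cdc7 (0.95), the kinase that fires origins, and Donson (0.85) higher and Gmnn (-0.80), the inhibitor of licensing, and Pold4 (-0.96, an uncertain level) lower. Cdk6 (-1.57) and Ccnd2 (-1.07), a G1 kinase and its cyclin, were lower, and Ccnd3 (0.36), another cyclin D gene, was higher. Of the 25 genes of G2 and mitosis 8 were higher and 6 lower. In the same comparison 8 of 9 neutrophil and 7 of 7 monocyte markers were lower in HSC, with neutrophil sums of 67.9 to 82.3 CPM in HSC and 1521 to 1614 CPM in HPC. Monocyte sums were 177 to 194 CPM in HSC and 332 to 380.4 CPM in HPC. Of 7 stem cell markers 6 were higher (921 to 1045 CPM in HSC, 375 to 392 CPM in HPC). S100a9 was at 0 in HSC WT, and no stem cell marker was at 0 in either group. The part of these markers in the replication genes was not tested.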

How the data were processed

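RNA from 18 libraries was measured; the 2 CUT&Tag samples were not analysed here. Each cell type has 1 deposited table of unnormalised counts per gene. Per the file headers, the authors counted read pairs on exons with featureCounts 2.0.6, unstranded, and joined exons by gene. Per the submitters' processing notes, reads were trimmed with Trim Galore 0.6.10 and aligned with STAR 2.7.11a to mm39, while the file headers name an mm10 annotation, and coordinates are given as in the tables (mm10). The tables also hold exon lengths as deposited, used here for CPM per kb. Computed here with edgeR 4.0.16 (limma 3.58.1, R 4.3.3) were TMM factors, a filter on low counts (filterByExpr), robust quasi-likelihood F tests, with p adjusted by Benjamini-Hochberg across every tested gene, in 1 fit of 9 libraries per cell type and 1 fit of all 18 libraries for comparisons between cell types. The number after ± is the standard error of a fitted log2 fold change. Log2 CPM by library used a prior count of 2. The tests were checked on simulated data. Alternatives were RLE factors, DESeq2 1.42.0, an unfiltered fit, at least 1 CPM in 3 libraries, only the groups compared, a replicate block, each library left out in turn and, added after seeing the data, library totals in place of TMM. The genes, their roles and the other lists were chosen with earlier results of these data known. Levels by library are given for up to 10 called genes of a comparison by p, its highest and lowest gene and, in comparisons with WT, for a gene fixed per role (in hom, fold changes alone); up to 4 called genes are named per list. No pair of libraries of a group agreed within sampling noise.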

Additional observations from a re-analysis of the deposited data

Results flagged for a closer look

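Differences between the genotype effect in HSC and that in HPC passed the edgeR test for 8 genes of the wider replication and cycle lists, none of them among the 51, and each was singled out by that test of the difference. Over all genes tested, edgeR called 2.79% for hom and 1.94% for het. For hom, the log2 difference of the HSC effect minus the HPC effect was -0.48 ± 0.10 (adjusted p = 0.00975) for Ccnb1, -0.45 ± 0.09 (adjusted p = 0.00774) for Nusap1 and -0.36 ± 0.10 (adjusted p = 0.0495) for Ccna2. Ccnb1 had 70.2, 75.2 and 73.1 CPM in HSC hom libraries, against 100.5, 100.4 and 100.0 CPM in HSC WT libraries, and 66.7, 71.0 and 69.7 CPM in HPC hom libraries, against 69.3, 64.2 and 74.6 CPM in HPC WT libraries. Nusap1 had 84.3, 82.0 and 87.1 CPM in HSC hom libraries, against 116, 107 and 112 CPM in HSC WT libraries, and 89.7, 93.5 and 91.7 CPM in HPC hom libraries, against 90.4, 87.6 and 92.9 CPM in HPC WT libraries. Ccna2 had 105, 111 and 105 CPM in HSC hom libraries, against 141, 133 and 137 CPM in HSC WT libraries, and 97.1, 96.9 and 105 CPM in HPC hom libraries, against 112, 93.8 and 98.3 CPM in HPC WT libraries. In each of the 3 genes hom and WT were apart in HSC and overlapped in HPC.

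Dbf4 differed by -0.45 ± 0.11 (adjusted p = 0.0247), with 53.9, 50.4 and 54.5 CPM in HSC hom libraries, against 69.1, 69.0 and 67.9 CPM in HSC WT libraries. The nucleotide kinase gene Cmpk1 differed by -0.44 ± 0.08 (adjusted p = 0.00733), with 107, 111 and 109 CPM in HSC hom libraries, against 135, 133 and 137 CPM in HSC WT libraries. The deoxycytidine kinase gene Dck differed by -0.34 ± 0.08 (adjusted p = 0.0287), with 93.5, 93.7 and 93.0 CPM in HSC hom libraries, against 105, 109 and 101 CPM in HSC WT libraries, and 118, 114 and 118 CPM in HPC hom libraries, against 109.7, 104 and 102 CPM in HPC WT libraries. Wdhd1 differed in the other direction, by 0.67 ± 0.15 (adjusted p = 0.0247), with 100.5, 78.6 and 73.4 CPM in HSC hom libraries, against 73.2, 59.1 and 74.8 CPM in HSC WT libraries, and 71.2, 67.5 and 73.6 CPM in HPC hom libraries, against 98.3, 92.6 and 90.5 CPM in HPC WT libraries. For het, Mtbp differed by 0.62 ± 0.12 (adjusted p = 0.0075), with 27.0, 26.2 and 27.4 CPM in HSC het libraries, against 31.6, 31.9 and 27.9 CPM in HSC WT libraries, and 24.5, 24.4 and 21.9 CPM in HPC het libraries, against 40.8, 40.7 and 42.2 CPM in HPC WT libraries. In Mtbp the het libraries were the lowest 3 of the 9 in HPC. Over 5% of the exon bases of Ccna2 (11.2%) and Nusap1 (6.82%) overlap another gene, so their levels are uncertain. The causes of these differences were not tested.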

How the results depend on the processing

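Under RLE factors and a minimum of 1 CPM in 3 libraries, each count stayed within 1.5 times its value. DESeq2 called 810 genes of all tested in HSC hom against WT (300 by edgeR), 216 in HSC het against WT (5), 174 in HSC hom against het (2), 851 for the hom difference (431) and 499 for the het difference (300), with 2 of the 50 genes lower in HSC het and 1 higher in the hom difference. Without a filter these counts over all genes were 898, 399, 511, 738 and 592, and of the 50 genes 7 were lower in HSC het, 19 in HPC het and 3 in HPC hom, 2 were higher in HSC hom than in het (1 without overlap), 8 in HPC hom than in het, 1 in the hom difference and 2 in WT HSC. With only the groups compared, 155 genes were called in HSC hom and 299 in HSC het against WT, 1 in HSC hom against het and 514 for the het difference, and 7 of the 50 genes were lower in HSC het. With library totals, 2 of the 50 genes were lower in HPC hom (9 without overlap) and 1 was higher in the hom difference. In WT HSC against WT HPC they gave 7 higher, 13 lower, a median of -0.10, and 10 higher and 16 lower without overlap. The replicate block, numbers of which are shared across genotypes, gave 189 genes in HSC hom against WT and 2 of the 50 genes lower in HPC hom, Pold1 and Pold2. Same-numbered libraries correlated at -0.114 to 0.228 in HPC and -0.127 to 0.140 in HSC, over 0.1 in 2 of 9 pairs each. Of the libraries, 4 of 9 in HPC and 2 of 9 in HSC correlated best with their own number. Replicate 1 had the most of the 50 genes above the WT mean in WT and hom of both cell types, and replicate 3 in het of both. Weak correlations cannot tell whether same-numbered libraries share an animal, culture or day, which the labels do not say. Leaving out 1 library gave ranges over all genes of 48 to 638 in HSC hom against WT, 2 to 7 in HSC het, 1 to 408 in HSC hom against het, 701 to 1179 in HPC hom against het, 149 to 941 for the hom difference and 138 to 292 for the het difference. Of the 50 genes it gave 0 to 1 higher and 0 to 6 lower in HSC hom against WT, 0 to 5 higher in HSC hom against het, 5 to 12 lower in HPC het, 0 to 2 lower in HPC hom, 2 to 5 higher in HPC hom against het, and 0 to 2 higher and 0 to 2 lower in the hom difference. Without overlap they were 0 to 6 higher and 1 to 29 lower in HSC hom against WT, 3 to 28 higher and 0 to 1 lower in HSC hom against het, 0 to 1 higher in HSC het, 0 to 12 higher and 5 to 9 lower in HPC hom against WT, 15 to 34 higher and 0 to 1 lower in HPC hom against het, and 1 to 7 higher in WT HSC. For these fits the share of all genes lying apart was not counted. The median of the het difference ran from -0.13 without HPC WT replicate 1 to 0.019 without HSC WT replicate 1. Some log2 fold changes turned sign when 1 library was left out. E2f1 in HSC het ran from -0.024 to 0.080, and was negative without WT replicate 3, het replicate 1 or het replicate 3. Rfc3 in HSC hom against het ran from -0.11 to 0.056 (without het replicate 3), and Chaf1b in HPC hom against het from -0.18 to 0.0053 (without hom replicate 3). In HPC het, Rpa2 ran from -0.14 to 0.088, E2f1 from -0.11 to 0.018 and E2f2 from -0.061 to 0.047, each highest without WT replicate 1, and Rpa2 was also positive without het replicate 1. The causes were not tested.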

Other observations

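Chtf8, Atrip, Pclaf and Ly6a were, like Rrm2, at 0 counts in all 18 libraries. Of the exon bases of Chtf8 100% and of those of Atrip 99% overlap another gene, while those of Pclaf, Ly6a and Rrm2 overlap none, and the cause of the last 3 values of 0 was not tested.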
